A study of Mus musculus with 38 samples.

Results

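The genes described here encode the molecular chaperones and their partners: every gene whose symbol begins with Hspa, Hspb, Hspd, Hspe, Hsph, Dnaja, Dnajb or Dnajc, or is one of Cct2 to Cct8 with any suffix. The rule found 80 genes among the 25965 genes of the RNA table and the same 80 among the 25888 genes of the chromatin table. They comprise 11 Hsp70 genes, 3 genes of the larger Hsp110 branch, 9 subunit genes of the TRiC/CCT chaperonin, 2 genes of the mitochondrial chaperonin (Hspd1 and Hspe1), 7 small heat shock genes and 45 J-domain genes (4 Dnaja, 13 Dnajb and 28 Dnajc). A further 3 genes share the Hspb prefix without being small heat shock proteins: Hspb11, a component of the ciliary transport machinery, Hspbap1, and Hspbp1, a nucleotide exchange factor of Hsp70. Hsp90 genes and Tcp1, the remaining subunit of TRiC, do not match the rule and enter only as comparison lists.

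Neural stem/progenitor cells (NSPCs) were grown as floating neurospheres from the subventricular zone, a stem cell niche of the adult forebrain, in medium with EGF, FGF and B27. Young adult mice were 3 months and aged mice 18 months old. All were male C57BL/6J/Babr mice, and each derivation pooled the tissue of 5 mice and was used at passage 2. RNA was sequenced from 3 derivations per age, H3K4me3, H3K27me3 and Input were given as 1 value per age over 3 replicates, and bisulphite (BS) and oxidative bisulphite (oxBS) libraries were made from 3 replicates per age. A further pair of RNA libraries, 1 young adult and 1 aged, came from mice of the same ages labelled C57BL/10 and kept in another facility. The growth text of these 2 libraries is shared with the other samples and speaks of C57Bl/6; the strain label is followed here, and strain and facility cannot be told apart. Cultures select the cells that proliferate in growth factors, so the libraries describe cultured cells and not the niche itself.

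Hsp70 proteins hold unfolded stretches of protein in a cycle driven by ATP. J-domain proteins deliver clients and trigger that ATPase, while Hsp110 proteins and Hspbp1 release the nucleotide. TRiC folds actin, tubulin and other cytosolic proteins inside a closed chamber, Hspd1 and Hspe1 form a folding chamber in mitochondria, and small heat shock proteins bind unfolding proteins without using ATP. Some of these genes are kept on in all cells, and others are induced by heat shock factor 1 or by the unfolded protein response of the endoplasmic reticulum (ER).

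The C57BL/6J/Babr RNA libraries held 16952483 to 41053986 reads, the C57BL/10 libraries 27183308 (young adult) and 24582964 (aged), and 65.5% to 69.3% of the reads lay on genes. The NSPC markers Nes, Sox2 and Vim stood at 10.325 to 10.526, 6.86 to 7.32 and 11.415 to 11.823 log2 RPM (RPM, reads scaled to a fixed library total) in the 6 C57BL/6J/Babr libraries. Of the marker lists of other cell types, astrocyte genes summed to 1829 to 2400 RPM, oligodendrocyte lineage genes to 1169 to 1405, ependymal genes to 31.6 to 103.2 and neuronal genes to 9.1 to 15.3. Microglial genes summed to 5.3 to 7.7 RPM, with 5 of 6 under 1 RPM, endothelial genes to 1.7 to 2.9 and pericyte genes to 0.34 to 1.03. Summed levels of the 2 ages overlapped for each of these lists.

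Among the 80 genes, Hsp70 genes and TRiC made up most of the RNA in the C57BL/6J/Babr libraries. The Hsp90 family, outside the rule, summed to 1935 to 2176 RPM in the 6 C57BL/6J/Babr libraries, where the Hsp70 gene Hspa8 stood at 1248 to 1497 RPM. Levels of different genes were compared as RPM per kilobase of exon, as a mean over the 6 C57BL/6J/Babr libraries, and a gene with many annotated exons comes out lower on this scale. The Hsp70 genes summed to 574.5 RPM per kb, 37.9% of the sum over all 80 genes, and TRiC subunits to 362.0 (23.9%). Dnajc genes followed with 200.7 (13.2%) spread over 28 genes, and the mitochondrial chaperonin with 126.7 (8.35%) from only 2 genes. Dnajb, Dnaja and Hsp110 genes summed to 71.9, 70.8 and 64.8 RPM per kb, the 3 other Hspb symbols to 27.6 and the small heat shock genes to 17.5 (1.15%).

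Hspa8, the constitutive cytosolic Hsp70, had the highest level, with 333.2 ± 15.1 RPM per kb in the young adult and 314.4 ± 30.1 in the aged group (SD over 3 derivations). Next came Hspa5 (BiP, the Hsp70 of the ER) at 112.9, Cct2 at 96.96, Hspd1 at 83.0, Cct5 at 75.2 and Hspa9, the mitochondrial Hsp70, at 70.5 RPM per kb. Within the other classes the highest levels were those of Hspe1, the lid of the mitochondrial chamber (43.7), Hspa4 (40.1), Dnaja2 (36.2), Dnajc7 (28.9), Hspbp1 (23.97), Dnajb11 of the ER (15.7) and Hspb8 (7.52). The stress-inducible Hspa1a and Hspa1b stood at 21.6 and 21.9 RPM per kb, but their transcripts are near-identical copies, so how reads were split between them is uncertain.

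Of the 80 genes, 12 had a mean log2 RPM under -2 and were not tested: Dnajb7, Dnajb8, Dnajc5b, Dnajc5g, Dnajc6, Dnajc22, Hspa12b, Hspb2, Hspb3, Hspb7, Cct6b and Cct8l1. Of these, Dnajb8, Dnajc5b, Dnajc5g and Hspb3 had 0 reads in all 8 libraries, which allows up to 0.0731 to 0.177 RPM per library (3 reads, counting error only). Among 13 members listed for testis, muscle or cilium, 10 stayed under 1 RPM in every C57BL/6J/Babr library. Hspb2, a muscle small heat shock gene, was at -5.32 to -2.50 log2 RPM, and Dnajc6, the neuronal auxilin that uncoats clathrin vesicles, at -4.24 to -1.9998. The other 68 genes entered the tests.

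Promoter sequences of 250 bases before the annotated start were taken from RefSeq (GRCm38.p6) for 67 of the 80 genes. The sequences below belong to the inducible Hsp70 pair, small heat shock and Hsp110 genes, the mitochondrial chaperonin, J-domain genes and the ER chaperone whose RNA is described afterwards. Capitals mark paired units of the heat shock element, GAANNTTC or TTCNNGAA, or in Hspa5 the ER stress element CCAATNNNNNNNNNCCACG. Hspa1a was read at chr17:34972157-34972406 on the minus strand and Hspa1b at chr17:34959239-34959488 on the minus strand.
Hspa1a: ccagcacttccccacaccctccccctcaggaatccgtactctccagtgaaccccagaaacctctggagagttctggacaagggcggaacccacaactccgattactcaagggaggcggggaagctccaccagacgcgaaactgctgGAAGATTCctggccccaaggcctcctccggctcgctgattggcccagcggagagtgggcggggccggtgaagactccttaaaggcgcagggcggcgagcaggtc
Hspa1b: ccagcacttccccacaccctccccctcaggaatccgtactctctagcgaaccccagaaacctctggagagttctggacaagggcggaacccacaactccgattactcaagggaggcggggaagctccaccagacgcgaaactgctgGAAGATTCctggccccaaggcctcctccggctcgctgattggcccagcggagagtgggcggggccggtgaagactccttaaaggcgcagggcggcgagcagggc
Hspb1 lay at chr5:135887669-135887918 on the plus strand, Hsph1 at chr5:149636316-149636565 on the minus strand and Hspe1 at chr1:55087898-55088147 on the plus strand.
Hspb1: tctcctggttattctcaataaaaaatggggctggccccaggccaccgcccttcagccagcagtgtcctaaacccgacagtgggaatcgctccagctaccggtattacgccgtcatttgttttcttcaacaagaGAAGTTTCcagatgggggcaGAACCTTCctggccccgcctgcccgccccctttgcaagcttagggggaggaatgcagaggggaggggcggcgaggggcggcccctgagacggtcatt
Hsph1: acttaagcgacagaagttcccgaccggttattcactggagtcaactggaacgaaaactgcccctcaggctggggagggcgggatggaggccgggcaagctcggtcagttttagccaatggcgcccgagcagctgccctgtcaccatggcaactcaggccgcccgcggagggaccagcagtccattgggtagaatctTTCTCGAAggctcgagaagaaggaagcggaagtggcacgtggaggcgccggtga
Hspe1: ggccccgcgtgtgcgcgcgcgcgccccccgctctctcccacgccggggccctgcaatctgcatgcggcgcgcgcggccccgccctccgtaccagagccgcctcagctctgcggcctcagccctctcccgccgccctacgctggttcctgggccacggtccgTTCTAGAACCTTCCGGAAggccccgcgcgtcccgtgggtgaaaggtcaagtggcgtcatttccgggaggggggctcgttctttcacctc
Dnaja4 lay at chr9:54699309-54699558 on the plus strand, Dnajb6 at chr5:29735729-29735978 on the plus strand and Hspa5 at chr2:34771840-34772089 on the plus strand.
Dnaja4: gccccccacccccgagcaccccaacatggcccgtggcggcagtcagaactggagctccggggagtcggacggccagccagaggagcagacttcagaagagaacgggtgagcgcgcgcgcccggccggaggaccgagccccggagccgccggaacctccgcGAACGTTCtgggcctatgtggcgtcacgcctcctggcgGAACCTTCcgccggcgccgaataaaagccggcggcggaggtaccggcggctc
Dnajb6: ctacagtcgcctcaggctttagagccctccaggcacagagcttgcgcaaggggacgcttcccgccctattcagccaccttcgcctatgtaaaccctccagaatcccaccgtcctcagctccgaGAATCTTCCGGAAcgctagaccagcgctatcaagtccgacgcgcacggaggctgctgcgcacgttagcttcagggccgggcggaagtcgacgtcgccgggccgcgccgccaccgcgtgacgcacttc
Hspa5: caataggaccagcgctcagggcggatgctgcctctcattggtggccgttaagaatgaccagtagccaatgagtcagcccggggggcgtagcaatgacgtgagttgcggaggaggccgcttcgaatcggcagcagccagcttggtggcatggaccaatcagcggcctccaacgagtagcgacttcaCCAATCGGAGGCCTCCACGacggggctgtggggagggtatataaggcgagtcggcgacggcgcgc

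The promoters of Hspa1a and Hspa1b had the same base at 247 of 250 positions (98.8%) and held the paired units at the same place, 97 to 104 bases before the start. Hspd1 and Hspe1 lie head to head with starts 216 bases apart, so that 215 of the 250 bases belong to both promoters and the sequence printed for Hspe1 holds the elements of both genes. On either strand, 12 of the 67 chaperone promoters (17.9%) held at least 1 paired unit, against 12.8% of 32851 promoters of the same length. Overlapping units in a row, GAANNTTCNNGAA or TTCNNGAANNTTC, which contain the pair, were found in Dnajb6, Hspd1 and Hspe1 (4.48%), against 0.466% of all promoters. The ER stress element was found in Hspa5 and in Dnajc3, an ER J-domain protein (2.99%), against 0.113%. No match says only that these letters are absent from this window.

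No chaperone gene passed the test between aged and young adult NSPCs. With limma's moderated test on log2 RPM and Benjamini-Hochberg adjustment, 0 of 68 genes had an adjusted p under 0.05, against 0.0% of all 14858 genes, and 0 of the 68 had an unadjusted p under 0.05, against 1.74% of all genes. edgeR and DESeq2 on whole reads also called 0 of the 68, with 0 unadjusted p under 0.05 in each. Blocking on replicate number also gave 0 of the 68 in limma, against 0.498% of all genes. p-values here measure the spread between the 3 derivations of an age. In bulk libraries, fewer cells of a type and less RNA per cell cannot be told apart.

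The intervals of the differences were narrow for most members. For 56 of the 68 genes (82.4%, against 69.7% of all genes) the 95% interval of the aged to young adult ratio lay within 1.5-fold in both directions. Hspa8 had an interval of 0.757 to 1.17, Hspa5 0.827 to 1.13, Hspa9 0.834 to 1.10, Hspd1 0.825 to 1.11, Hspe1 0.820 to 1.08 and Cct2 0.817 to 1.14. Hsph1, the inducible Hsp110, had 0.825 to 1.15, Dnaja1 0.860 to 1.18, Dnajb1, the inducible partner of Hsp70, 0.790 to 1.08, and Dnajb9 of the ER 0.786 to 1.35. The other 12 genes had wider intervals, among them Dnajb13 (0.298 to 4.79), Hspa1a (0.363 to 2.21) and Hspa1b (0.344 to 2.36). All these intervals come from the fit without the replicate block, so differences between replicate numbers add to their width.

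The median log2 difference, aged minus young adult, was -0.05 over the 68 genes and 0.00 over all genes. Values were below 0 for 52 chaperone genes and above 0 for 16, while 49.4% of all genes were below 0. Of the 7 astrocyte markers, 6 were also below 0 and 1 above, with a median of -0.20, from -0.54 for Gfap to 0.39 for S100b. Of the tested markers, 3 of 3 ependymal, 2 of 2 microglial and 5 of 8 NSPC genes were below 0 as well. Above 0 were 6 of 8 oligodendrocyte lineage markers, 3 of 4 neuronal, 2 of 2 endothelial and 1 of 1 pericyte markers and 9 of 12 immediate early genes. Limma called 0 genes of these lists between ages. Their part in the values of the members was not tested. In C57BL/10, with 1 library per age and so no test, 53 of the 68 genes (77.9%) were lower in the aged library, against 52.1% of all genes. Between libraries with the same replicate number, 17 of the 68 (25%) were lower in the aged library of all 3 pairs, against 13.3% of all genes, and 1 (1.47%) was higher in all 3, against 15.9%. Of those 17, 14 were also lower in the aged C57BL/10 library. Genes of 1 library are not replicates of the ages, so these counts carry no p.

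By class the medians ran from -0.31 to -0.02. The 4 tested small heat shock genes had the lowest median, -0.31, Hsp70 genes -0.10, the mitochondrial chaperonin -0.07, the other Hspb symbols -0.07, and Dnaja, Dnajc and Hsp110 genes -0.04 each. Of the 4 small heat shock genes, 1 had an interval within 1.5-fold. Hspb9 (-0.39, interval of the ratio 0.356 to 1.64) rested on 7 to 12 reads per C57BL/6J/Babr library. In C57BL/10, with 1 library per age, the median of these genes was 0.09. TRiC and Dnajb genes had medians of -0.02. Of the TRiC subunits, 6 of 7 were below 0, with differences from -0.05 to 0.02.

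Hspb6, a small heat shock protein best known from muscle, had the smallest unadjusted p (0.07). It stood at 3.71, 4.01 and 4.29 log2 RPM in young adult and at 3.48, 3.57 and 3.87 in aged derivations 1 to 3. The ages overlapped, since aged derivation 3 lay above young adult derivation 1, while within each number the aged value was lower. The log2 difference was -0.36 (SE 0.17, limma adjusted p = 1.0).

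Hspb8, which works with the co-chaperone Bag3 in clearing misfolded proteins, stood at 4.06, 3.81 and 4.03 log2 RPM in young adult and 3.93, 3.50 and 3.85 in aged derivations. Hspb1 (Hsp25, a widely expressed inducible small heat shock protein) stood at 1.44, 2.18 and 1.80 and at 1.20, 1.75 and 1.71. Both were lower in the aged library of each number, with ages that overlapped and log2 differences of -0.20 (SE 0.14) and -0.25 (SE 0.25). In the C57BL/10 pair, aged minus young adult was -0.46 for Hspb6 and -0.33 for Hspb8 and 0.68 for Hspb1 and 0.51 for Hspb9, the last 2 on 9 and 13 reads (Hspb1, with 64.5% repeated words) and on 7 and 9 reads (Hspb9).

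Among the J-domain genes, Dnajc4 stood at 2.35, 2.42 and 2.52 log2 RPM in young adult and 2.17, 1.81 and 2.35 in aged derivations, a difference of -0.33 (SE 0.18). Dnajb3, a gene best known from testis, stood at -0.11, -0.38 and -0.01 and at 0.10, 0.34 and 0.16, a difference of 0.37 (SE 0.25). These were the only 2 of the 68 genes whose ages did not overlap, 1 in each direction, where 3.14% of all genes had all aged libraries above and 2.05% all below the young adult ones. For Dnajc4 the gap was small, since the lowest young adult and the highest aged value both round to 2.35. Dnajc15, a mitochondrial import co-chaperone, differed by -0.19 (SE 0.15) and Dnajc27 by -0.13 (SE 0.11). The other members with the smallest p among positive differences were Hspbap1 (0.13, SE 0.17), Dnajc14 (0.05, SE 0.08), Dnajc19 of the mitochondrial import motor (0.05, SE 0.11) and the ribosome-associated Hspa14 (0.04, SE 0.08).

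**Figure D1:**
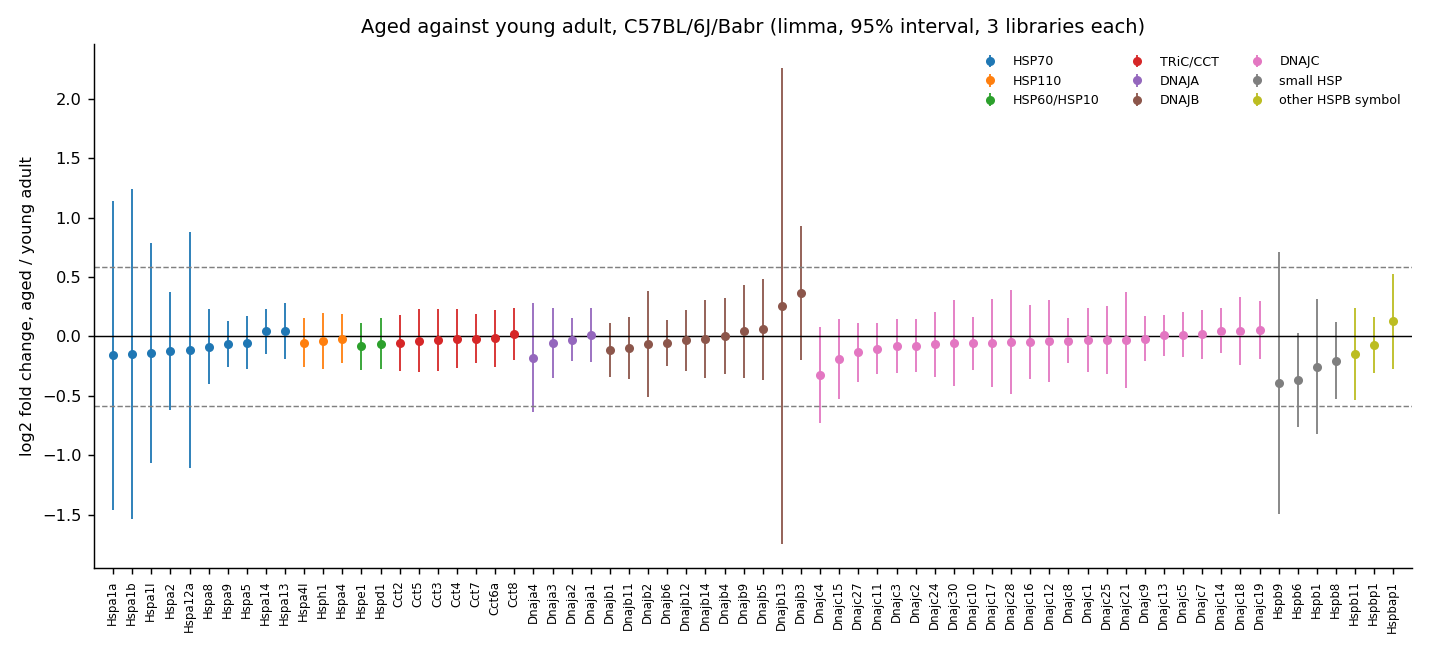
Log2 difference in RNA, aged minus young adult C57BL/6J/Babr NSPCs, for the 68 tested chaperone genes by class, from the limma fit, with bars for the 95% interval and dashed lines at 1.5-fold. Most points lie slightly below 0 (52 of 68), none passed the adjusted threshold, and the small heat shock genes sit lowest with a median of -0.31, among them Hspb9 on 7 to 12 reads per library.

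Between ages limma called 0 of all 14858 genes, so the partners of the chaperones are given by direction alone. Of 21 co-chaperones of Hsp90 and Hsp70, 14 were below and 7 above 0, of 4 Hsp90 family genes 3 and 1, of the 6 prefoldin and Tcp1 genes 6 and 0, and of 9 mitochondrial proteases and chaperones 5 and 4. Of 19 genes of the ER stress response, 11 were below and 8 above 0. Hsf1 and Hsf2, the tested heat shock factors, differed by -0.09 and 0.01, and of the holdases Cryab (alpha B-crystallin) by -0.08 and Clu by 0.01. Among subsets of the members themselves, 10 of 11 genes of the stress-inducible list (which also holds the constitutive Hspa8, at -0.09), 5 of 7 ER genes, 8 of 9 mitochondrial genes and 2 of the 4 tested testis, muscle or cilium genes were below 0.

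The interaction of age and strain was called for 0 of 68 members in limma (0 with an unadjusted p under 0.05), against 0.00674% of all 14828 genes tested. edgeR also called 0. With 1 C57BL/10 library per age, this test assumes that the lone libraries vary like the C57BL/6J/Babr ones.

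Derivations of different replicate number were compared next. Young adult and aged libraries of the same replicate number deviated together, so the 3 numbers were compared with age as a covariate, although the labels do not say what the libraries of 1 number share. By limma's moderated F test, 16 of 68 chaperone genes differed between numbers (adjusted p under 0.05), against 22.0% of all 14858 genes. By the mean of the 2 ages, number 1 was highest for 26 of the 68 genes, number 2 for 8 and number 3 for 34, against 37.9%, 19.2% and 42.9% of all genes. The highest number was the same in both ages for 46 of the 68, a count with no share over all genes beside it. It was also the same for all 16 called members, but the test favours genes whose 2 ages agree, so this adds no support.

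The inducible Hsp70 genes rose in number 2. Hspa1a stood at 5.10, 7.14 and 5.27 log2 RPM in young adult derivations 1 to 3 and at 4.96, 6.55 and 5.52 in aged ones. Hspa1b stood at 4.95, 7.12 and 5.15 and at 4.81, 6.54 and 5.40. Summed over the 2 copies, the level was 65.2, 279.8 and 74.0 RPM in young adult and 59.2, 187.0 and 88.2 RPM in aged derivations, highest in number 2 at both ages.

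Highest minus lowest number was 1.95 on the log2 scale for Hspa1b (adjusted p = 2.5e-05) and 1.82 for Hspa1a (adjusted p = 3.4e-05, limma). Hspa1l, which lies next to Hspa1a on the opposite strand and is best known from testis, stood at 2.49, 3.84 and 2.50 and at 2.33, 3.42 and 2.67 log2 RPM, a range of 1.22 (adjusted p = 0.000495). Whether reads of Hspa1a entered the count of Hspa1l is not known from the deposited values. With Dnajb13 and Hspa12a, described next, 5 of the 68 members were called with a range of at least 1 on the log2 scale, against 4.41% of all genes.

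Several other inducible members did not pass the test. Dnajb1 stood at 4.95, 5.25 and 5.14 log2 RPM in young adult and at 4.98, 5.02 and 4.99 in aged derivations (adjusted p = 0.39). Hsph1 stood at 7.28, 7.17 and 7.04 and at 7.24, 7.16 and 6.97, highest in number 1 (adjusted p = 0.0709). Hspb1 was highest in number 2 with a range of 0.65 that missed the threshold (adjusted p = 0.0534). Of the 11 members of the stress-inducible list, which also holds the constitutive Hspa8, 3 were called (Hspa1a, Hspa1b and Dnaja4), against 22.0% of all genes.

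A second set of members was highest in number 3. Hspa12a, a distant Hsp70 relative, stood at 0.94, 1.31 and 2.27 log2 RPM in young adult and at 0.70, 1.36 and 2.12 in aged derivations, a range of 1.38 (adjusted p = 0.00122). Dnaja4 stood at 4.30, 4.36 and 4.82 and at 4.01, 4.25 and 4.69, a range of 0.60 (adjusted p = 0.00283). Both showed the same order of the numbers in both ages.

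Hspa2, an Hsp70 best known from spermatogenesis, had a range of 0.66 (adjusted p = 0.0046), Dnajb2 of neurons 0.53 (adjusted p = 0.0273) and Hspb6 0.48 (adjusted p = 0.0224), each highest in number 3. Dnajb9 (range 0.44, adjusted p = 0.047), Dnaja3, Dnajb14, Dnajc16 and Dnajc18 were also called and highest in number 3. Outside the members, Cryab was called with a range of 1.22 and Bag3 with 0.64, both highest in number 3, and 11 of 12 immediate early genes were called, with a median range of 0.68. Of the 7 astrocyte markers, Aqp4 (range 0.83, adjusted p = 0.000344), Slc1a3 (0.64, adjusted p = 0.00213) and Slc1a2 (0.48, adjusted p = 0.0131) were called and highest in number 3. Aldh1l1, the astrocyte marker with the highest level, went the other way. It was lowest in number 3 in both ages and was not called (range 0.32, limma adjusted p = 0.0946). Of the 8 oligodendrocyte lineage markers, 5 were called, among them Mbp (range 1.91), which was highest in number 2. Their part in the differences of the members was not tested.

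Dnajb13, a J-domain protein of the axoneme of motile cilia, had the largest range, 2.73 (adjusted p = 0.00089). It stood at -1.90, 0.82 and 1.63 log2 RPM in young adult and at -0.62, 0.64 and 1.31 in aged derivations, with the same ranking of the numbers in both ages. Ependymal markers moved with it: Foxj1 stood at 4.92, 5.99 and 6.60 and at 5.08, 5.72 and 6.51, and Rsph1 at 0.13, 1.67 and 2.28 and at -0.51, 0.91 and 1.63. All 3 tested ependymal markers were called and the list summed to 31.6 to 103.2 RPM in young adult and 34.7 to 95.1 in aged derivations, with 2 of its 4 genes under 1 RPM. Their part in the difference of Dnajb13 was not tested.

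A further set was highest in number 1, with small differences, of which few passed the test. By the mean of the 2 ages, all 7 tested TRiC subunits, all 3 Hsp110 genes and both mitochondrial chaperonin genes were highest in number 1. Within a single age, aged Hspa4 and Hspa4l and young adult Cct6a and Hspe1 were instead highest in number 2. Cct4 was called (range 0.25, adjusted p = 0.0471), at 7.19, 6.93 and 6.92 log2 RPM in young adult and 7.14, 6.93 and 6.91 in aged derivations. Dnajb5, the other called gene highest in number 1, stood at 6.04, 5.64 and 5.55 and at 6.18, 5.63 and 5.59 (range 0.54, adjusted p = 0.00133). Hsp90aa1, the inducible cytosolic Hsp90, was likewise called and highest in number 1 (range 0.37). Of the 8 NSPC markers, 4 were called between numbers, among them Fabp7, highest in number 1 (range 0.80, adjusted p = 0.000653), and their part in the differences of the members was not tested.

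The count of 16 depended on single libraries, from 6 without aged derivation 3 to 35 without young adult derivation 2. It was 8 without young adult derivation 3 and 32 without aged derivation 2. Over all genes the calls moved likewise, from 1474 of 14836 without aged derivation 3 to 6831 of 14857 without young adult derivation 2. The comparison lists gave 3 calls of 21 co-chaperones (Bag3, Hyou1 and Fkbp5), 5 of 19 ER stress genes, 1 of 9 mitochondrial proteases and chaperones, 0 of 6 prefoldin genes with Tcp1 and 0 of 2 heat shock factors by limma. Of the member subsets, 1 of 7 ER genes, 1 of 9 mitochondrial genes and 2 of 4 tested testis, muscle or cilium genes were called. All these counts stand beside 22.0% of all genes.

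**Figure D2:**
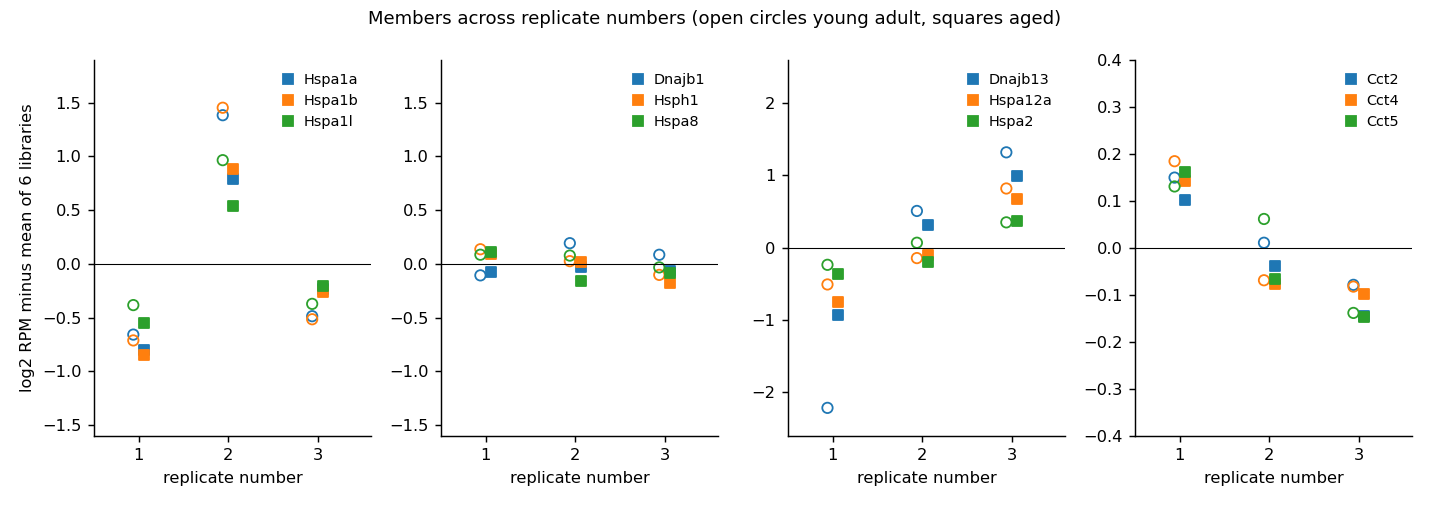
Log2 RPM of 12 chaperone genes minus the gene's mean over the 6 C57BL/6J/Babr libraries, by replicate number, with young adult libraries as open circles and aged ones as squares; the vertical scales differ between panels. Hspa1a, Hspa1b and Hspa1l peak in number 2 at both ages, Dnajb13, Hspa12a and Hspa2 are highest in number 3, and Hsph1, Cct2, Cct4 and Cct5 in number 1.

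The C57BL/10 libraries stood apart in genes whose sequence is repeated in the genome. The share of each gene's exonic 32-base words that occur elsewhere in GRCm38 was used as a measure. Among genes with at most 1% of such words, the median log2 difference, C57BL/10 minus C57BL/6J/Babr, was 0.22 and 2.51% of genes were called lower; among genes with 50% to 100% the median was -3.46 and 90.6% were called lower. There were 66 genes with 0 reads in both C57BL/10 libraries and at least 8 RPM in each C57BL/6J/Babr library, and 0 genes the other way round. The sources used here do not say how reads that fit several places were counted, and strain, facility and such counting cannot be told apart.

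Against that background, 23 of 68 chaperone genes were called between strains by limma, against 29.7% of all 14828 genes. Of these 14 were higher in C57BL/10 (18.2% of all genes) and 9 lower (11.5%). All 9 that were lower had over 10% repeated words, where 17 of the 68 genes lie and where 52.0% of all genes were called lower. None of the 41 genes with at most 5% was called lower, against 2.89% of all genes with at most 5%. Of the marker lists, 2 of 7 astrocyte genes (among them Gfap, -0.70) and 1 of 7 oligodendrocyte lineage genes (Mbp, -3.27) were called lower, 1 of 4 neuronal genes higher and 0 of 8 NSPC genes, and their part in the differences of the members was not tested.

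The lower genes include the most abundant Hsp70 of the C57BL/6J/Babr libraries. Hspa8 stood at 8.27 and 8.05 log2 RPM in the young adult and aged C57BL/10 libraries and at 10.29 to 10.55 in the 6 C57BL/6J/Babr libraries, a difference of -2.28 (SE 0.11, adjusted p = 1.42e-07), with 40.9% repeated words. Dnajb6, a J-domain protein that suppresses aggregation, stood at 3.00 and 3.09 against 5.17 to 5.36, a difference of -2.24 (SE 0.08, adjusted p = 2.24e-08), with 50.5%. Dnaja1, a cytosolic partner of Hspa8, stood at 5.75 and 5.66 against 7.12 to 7.36, a difference of -1.56 (SE 0.09, adjusted p = 7.04e-07), with 18.9%. In these 3 genes the strains were far apart and did not overlap.

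Hspa1b fell by 4.67 (SE 0.58, adjusted p = 0.000255, 68.2% repeated) and Hspa1a by 3.74 (SE 0.54, adjusted p = 0.000745, 65.2%) on the log2 scale. Their summed level was 6.47 and 5.74 RPM in C57BL/10 against 59.2 to 279.8 in C57BL/6J/Babr. Hspb1 stood at -1.59 and -0.92 log2 RPM in C57BL/10, a difference of -2.94 (SE 0.29, adjusted p = 4.79e-05, 64.5%). Hspd1 differed by -0.58 (SE 0.09, adjusted p = 0.00114, 64.9%), Hspe1 by -0.44 (SE 0.09, adjusted p = 0.0051, 25.4%) and Hspa1l by -1.20 (SE 0.39, adjusted p = 0.0461, 14.4%). Hsp90aa1, outside the members, differed by -1.65 with 61.95% repeated words, and Hsp90b1, the Hsp90 of the ER, by 0.58 with 3.82%.

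The 14 higher genes moved little, by 0.30 to 0.77 on the log2 scale, where the median of all genes was itself 0.17. They include Hspa4l (0.40) and Hspa4 (0.35) of the Hsp110 branch, the ER genes Hspa5 (0.34), Hspa13 (0.48), Dnajb11 (0.36) and Dnajc10 (0.33), and Cct8 (0.31). Hspa5 stood at 9.41 and 9.05 log2 RPM in C57BL/10, above all 6 C57BL/6J/Babr libraries, and its adjusted p was 0.0318. Centred on the median of all genes, 1 gene was called higher (Dnajc28, 0.77 before centring) and 9 lower. The share of all genes called after centring is not given here, so these counts have no background beside them.

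With only genes of at most 5% repeated words, rescaled to the reads on these genes, limma called 0 of 41 chaperone genes, against 5.07% of 11076 genes (1.53% higher and 3.54% lower). An unadjusted p under 0.05 in limma was reached by 6 of the 41, against 2279 of the 11076. Differences of the 41 ran from -0.40 to 0.52. edgeR with TMM scaling called 9 of the 68, 1 higher and 8 lower, and 2572 of all 14828 genes. Without the young adult C57BL/10 library limma called 8 of the 68, 0 of them higher, and 1446 of 14850 genes. Without the aged one it called 9, of which 2 were higher, and 1882 of 14835 genes. In both cases the single library left was taken to vary like the C57BL/6J/Babr libraries. Among the comparison lists, 8 of 19 ER stress genes were called higher and 2 lower, 2 of 21 co-chaperones higher and 1 lower (Ptges3, with 59.5% repeated words), 2 of 9 mitochondrial proteases and chaperones higher and 1 of 6 prefoldin and Tcp1 genes higher. The 5% limit and the centring were chosen after these values were seen.

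**Figure D3:**
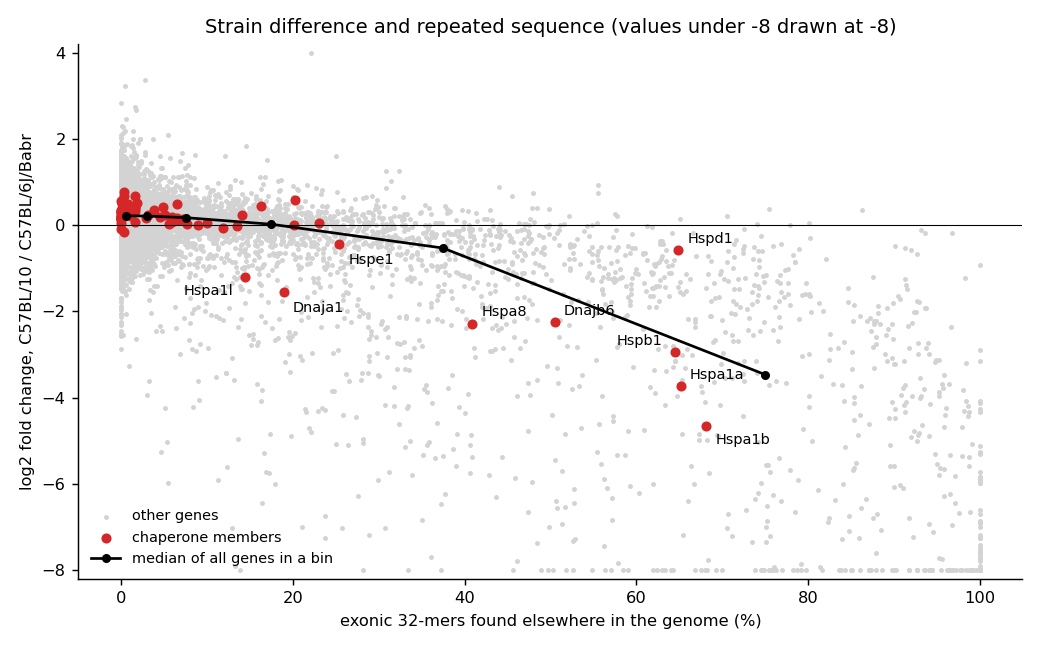
Log2 difference in RNA, C57BL/10 minus C57BL/6J/Babr, against the percent of a gene's exonic 32-base words found elsewhere in the genome, with all genes in the background and chaperone genes in front (values under -8 drawn at -8); the black line joins the medians of all genes in 6 bins. Chaperone genes with at most 5% lie between -0.15 and 0.77, and the 5 members above 50% lie between -4.67 and -0.58.

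H3K4me3, a mark of active promoters, and H3K27me3, the mark of Polycomb repression, were given as log2 RPM over a window of 5000 bp around each start, and the window with the highest H3K4me3 was taken for a gene. A single value per age allows neither a replicate check nor a test. Among windows with a log2 RPM above 1 in at least 1 age, no member passed 1.5-fold between ages for H3K4me3, against 0.0541% of 25888 genes higher and 0.158% lower, or for H3K27me3, against 0.718% and 0.78%. Below that level H3K27me3 differences past 1.5-fold did occur, as in Dnajc9 (-2.57 on the log2 scale), Dnajc5 (-1.57) and Hspa8 (-1.16), and were not counted. The median log2 difference, aged minus young adult, was 0.21 in the members and 0.15 in all genes for H3K4me3, and -0.10 and -0.02 for H3K27me3. After Input was subtracted within each age, Dnajb14, Dnajc8 and Hspa9 passed 1.5-fold upwards for H3K4me3, as 594 of the 25888 genes did, and Hspa2 for H3K27me3, as 174 genes did.

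Most chaperone promoters carried H3K4me3. Their median over both ages was 5.63 log2 RPM, against 4.01 for all genes, and 70 of 80 (87.5%) were over 3 in both ages, against 54.9% of all genes. TRiC genes had a median of 6.04 and small heat shock genes 3.11. The highest values were those of Dnajc14 (6.69 young adult, 6.93 aged), Dnajc2 of the ribosome-associated complex (6.37, 6.61), Cct5 (6.31, 6.56), Cct7 (6.31, 6.52) and Cct3 (6.30, 6.52).

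Both marks stood over 3 in both ages, a level chosen after the values were seen, in 5 members (6.25%, against 5.38% of all genes): Hspa1a, Hspa1b, Hspa1l, Hspb1 and Dnajc22. H3K27me3 at Hspa1a was 3.59 in young adult and 3.65 in aged NSPCs, beside H3K4me3 of 4.61 and 4.79. At Hspa1b, H3K27me3 was 3.56 and 3.52 beside H3K4me3 of 5.24 and 5.37. At Hspa1l, H3K27me3 was 3.30 and 3.37 beside H3K4me3 of 4.60 and 4.77. The window of Hspa1l overlaps that of Hspa1a, and how reads that fit both copies were placed is not known from the deposited values.

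Hspb1 had the highest H3K27me3 of the members, 3.88 and 4.14, beside H3K4me3 of 3.03 and 3.18. Dnajc22 (3.70 and 3.74) came next, followed by Hspa1a, and Dnajb8 stood at 3.49 and 3.60. Dnajc22 and Dnajb8 had little or no RNA. Hspa1a and Hspa1b differed from most genes with both marks in their RNA, which exceeded that of 98.2% and 98.1% of them, and Hspb1 exceeded 84.4%, where the median of such genes was -2.90 log2 RPM. Input at these windows was 0.96 and 1.38 for Hspa1a, 1.02 and 0.95 for Hspa1b and 0.63 and 0.81 for Hspb1, so H3K27me3 minus Input was 2.28 to 3.33 on the log2 scale.

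Of the members with RNA under the test limit, Hspb3 had H3K27me3 of 3.22 and 3.15, Dnajc6 2.57 and 2.73 beside H3K4me3 of 4.14 and 4.32, and Hspb2 0.21 and 0.06 beside H3K4me3 of 2.05 and 2.36. Hspa12a, whose RNA differed between derivations, had H3K4me3 of 3.25 and 3.16 and H3K27me3 of 2.54 and 2.27. Hspb6 stood at 5.35 and 5.62 for H3K4me3 and at -0.78 and -1.44 for H3K27me3. Which cells of a culture carry a mark cannot be told from these values.

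**Figure D4:**
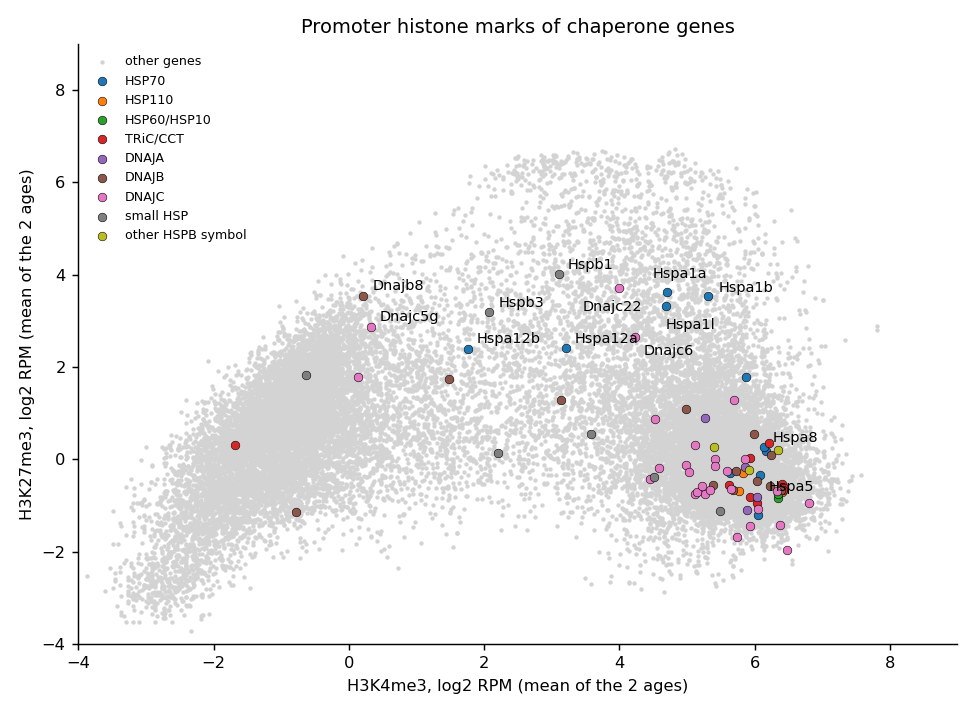
H3K4me3 against H3K27me3 at promoters, in log2 RPM per 5000 bp window as the mean of both ages, with all genes in the background and chaperone genes in front; 12 genes lie outside the axes. Most members lie at high H3K4me3 and low H3K27me3, while Hspa1a, Hspa1b, Hspa1l, Hspb1 and Dnajc22 lie over 3 for both.

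Promoter methylation varied between the chaperone classes, and no member was called between ages. 5-Methylcytosine (5mC) was taken from oxBS libraries of 13616283 to 21389132 calls, as the percent of methylated calls over the same windows. The median over the 80 genes was 22.6%, against 34.0% of all 23798 windows tested. It was 7.83% in the window shared by Hspd1 and Hspe1, 14.3% for Dnaja, 16.1% for Hsp110, 18.3% for Hsp70, 21.9% for TRiC, 24.3% for Dnajb, 24.7% for Dnajc and 48.4% for small heat shock genes. Within 500 bp of the start the median fell to 0.72% over the members and to 24.9% for small heat shock genes.

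Hspa8 had the lowest value, 8.94%, 5.13% and 5.41% in young adult and 5.23%, 6.42% and 4.35% in aged libraries. The highest were those of genes with little or no RNA: Dnajb7 (86.0% over 6 libraries), Cct8l1 (86.0%), Dnajc5g (79.0%), Dnajb8 (76.9%) and Hspb7 (70.1%). Hspb1 lay at 26.2%, Hspa1a at 22.6% and Hspa1b at 18.3%.

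By the quasi-binomial model of calls per library, 0 of 80 members changed between ages by the rule of an adjusted p under 0.05 and 10 percentage points, against 0.0% of all windows. The lowest adjusted p was 0.91. An unadjusted p under 0.05 was reached by 5 members, against 5.42% of windows. Among them, Dnajb2 lay at 22.9%, 14.2% and 20.1% in young adult and 31.2%, 27.9% and 29.1% in aged libraries, and Dnajb7 at 94.9%, 94.4% and 91.3% and at 65.7%, 82.4% and 87.5%, over 34 to 149 calls per library. The other 3, all with lower means in aged libraries, were Dnajc1 (-9.23 percentage points, aged minus young adult), Dnajc11 (-11.9) and Dnajc17 (-12.1). In the BS libraries the ages overlapped for both Dnajb2 (25.2%, 24.2% and 31.9% against 28.9%, 38.6% and 26.99%) and Dnajb7 (89.1%, 91.8% and 89.3% against 89.9%, 84.4% and 86.4%).

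Summed over the member windows, BS minus oxBS, a measure of 5-hydroxymethylcytosine, was 0.54, 1.27 and 1.19 points in young adult and 0.02, 1.88 and 2.49 points in aged replicates. The ages overlapped, and over all windows the values were 1.15 to 1.84 points.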

How the data were processed

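The RNA values are log2 RPM, reads scaled to a fixed library total, computed by the authors and deposited per gene and library. Whole reads were recovered from their steps (all values whole to within 0.02 reads), with zeros stored as the value of 0.9 reads. The ChIP values are log2 RPM in windows of 5000 bp around each TSS, deposited by the authors as 1 value per age. Counts of methylated and unmethylated calls per position were deposited by the authors for each BS and oxBS library. The submitters' processing notes name, with no role or order, STAR 2.3.0, Bowtie2 2.2.5, Bismark 0.12.5, Trim Galore 0.4 and 0.3.7 and the build GRCm38, and no source used here names the counting program.

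Ages, strains (with age as a covariate), replicate numbers and the interaction of age and strain were tested on log2 RPM with limma 3.58.1 (moderated test, mean-variance trend) in R 4.3.3, over genes whose log2 RPM averaged at least -2, with Benjamini-Hochberg adjustment over all genes and a threshold of 0.05. edgeR 4.0.16 and DESeq2 1.42.0 on recovered reads were alternatives. Calls of oxBS libraries were summed over TSS windows with at least 10 calls in every library and fitted by a quasi-binomial model with moderated dispersion. Promoter windows were counted past 1.5-fold with a log2 RPM above 1 in an age. Exon lengths came from GENCODE and repeated words (32 bases) from GRCm38. Tables were handled in Python 3.11.15 with numpy 2.4.6, pandas 2.3.3 and scipy 1.17.1. In simulated reads (dispersion 0.02), limma recovered 24% of 1.5-fold and 88.5% of 2-fold age changes, and 0% and 12% of such interactions. In simulated calls, the 5mC model without block recovered 16% of differences of 10 points. With a correlation of 0.02 within libraries it recovered 0.5%. Small changes could thus be missed.

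Samples were grouped by their labels. Young adult and aged libraries of the same replicate number deviated together from their age means, with correlations of 0.66, 0.18 and 0.72 for numbers 1 to 3 across 14858 genes, each above 0.1, the bound set for taking the numbers to mark pairs. The median residual SD was 0.173 without and 0.108 with the replicate as a block. The main age fits have no block, as the study states none, so their p-values, errors and intervals do not use the pairs, and the blocked fit is an alternative.

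The members and lists were chosen with earlier results of these data known. Named with values are members called in a test (the 10 smallest p where there are more), the 5 smallest p of each direction in the age test, the highest level of each class, 13 canonical members, Hspb2, Hspb6, Hspa12a and Dnajc6, and the 5 highest values of each mark and of 5mC. Other genes named were chosen after their values were seen. The 95% intervals of the age ratios rest on the spread between derivations, and the limits of 3 reads cover counting error only.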

Additional observations from a re-analysis of the deposited data

How the results depend on the processing

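Between ages, 0 members were called in each RNA alternative: edgeR, DESeq2, quantile normalization, log2(RPM + 1), other filters on low values, each library left out, genes of at most 5% repeated words and the replicate block. The block left 0 members called in the age test, the interaction and 5mC, though it raised the calls over all genes from 0 to 74 in the age test and from 1 to 36 in the interaction; DESeq2 called 4 genes between ages, none a member. With the block, 4 of the 68 members had an unadjusted p under 0.05, against 8.27% of all genes, the smallest adjusted p being 0.135. Where all 68 members were tested, 42 to 54 of them were lower in aged NSPCs, as were 51 of 67 with a filter at 0, 31 of 41 with at most 5% repeated words and 59 of 80 without a filter (65.7% of all genes there). With 1 library left out, the age difference changed sign for 9 named members: Cct2 ranged from -0.12 to 0.0069, Hspd1 from -0.13 to 0.0075, Hsph1 from -0.10 to 0.037, Dnaja1 from -0.047 to 0.084, Dnajb9 from -0.055 to 0.21, Hspa14 from -0.0067 to 0.070, Hspa12a from -0.48 to 0.27, Hspa1a from -0.60 to 0.49 and Hspa1b from -0.63 to 0.54.

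Between replicate numbers, 6 to 35 members were called with 1 library left out, and the calls over all genes moved likewise, as given above. Between strains, 8 to 26 members were called with 1 library left out (0 to 17 higher), 9 by edgeR (1 higher), 10 after centring (1 higher) and 0 among genes of at most 5% repeated words (0 higher, 0 lower). With Input subtracted, 3 members passed 1.5-fold for H3K4me3 and 1 for H3K27me3, while genes higher for H3K4me3 went from 14 to 594 of 25888. With 3 derivations per age and 1 value per age for ChIP, small changes could not be resolved, and windows of few calls limit 5mC.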
